A study of Mus musculus with 6 samples.

Results

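The 10 genes described here make up a core of the NRF2 antioxidant programme in mouse intestinal organoids: Nfe2l2, Keap1, Nqo1, Gclc, Gclm, Hmox1, Txnrd1, Srxn1, Gsr and Gpx2. They are taken by name from the 55416 genes of the table, and all 10 were among the 16975 genes with enough reads to be tested. Organoids are epithelial cultures grown in a gel, here from the small intestine of mice aged 4 to 8 weeks. All organoids, controls included, were Rosa26-rtTA Tg/Tg, which supplies the doxycycline-dependent activator, and Col1A1-TetO-OSKM Tg/Tg, whose cassette then expresses Oct4, Sox2, Klf4 and Myc together. The control group was compared with organoids treated for 3 days with doxycycline at 0.1 µg/ml, called the low dose here, or 0.5 µg/ml, the high dose. The labels give no day for the controls, so whether they were collected at the same time is not known. There were 3 groups of 2 libraries, which the series calls biological replicates. Whether these came from separate mice, lines or cultures is not stated, so the p-values measure only the spread between these libraries, which may be technical. None of the 3 groups received doxycycline without the transgene, so the drug and the factors cannot be told apart.

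NRF2, the protein of Nfe2l2, is a transcription factor that KEAP1 holds for destruction by a ubiquitin ligase. Oxidants and electrophiles modify KEAP1, NRF2 then accumulates, pairs with small MAF proteins and binds antioxidant response elements near its target genes. Those targets supply glutathione, reduce thioredoxin, clear quinones and peroxides and break down heme. In the intestine the pathway is known for guarding the epithelium against dietary electrophiles and oxidants. Because NRF2 is controlled mainly through the stability of its protein, its mRNA level is not a measure of its activity, and no protein was measured here.

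The library totals ran from 45.3 to 72.5 in units of 1e+06 expected counts, and the deepest was replicate 1 at the low dose. The labels were checked on the transgene's factors. Pou5f1, which encodes Oct4, was at 0.243 and 0.140 CPM (read counts scaled to a common effective library size) in control, at 136 and 141 CPM at the low dose, and at 486 and 512 CPM at the high dose. Sox2, Klf4 and Myc were ordered by dose in the same way, without overlap between groups. Epcam, which defines epithelium, was present throughout at 581 to 788 CPM. The defining markers of other tissues were low. Col1a1 of fibroblasts reached 4.07 CPM, Pecam1 of endothelium 0.279 CPM and Ptprc of leukocytes 0.298 CPM, with no count in either control library. Col1a1 was higher at each dose than in control (edgeR adjusted p under 0.05). The name of the transgene cassette includes this gene, and the source of its rise was not tested. Of the 3 fibroblast markers tested, Col1a1 and Dcn were higher and Pdgfrb was lower at the high dose than in control.

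RefSeq promoter windows, which run from 250 bases before to 50 bases after a gene's start (build GRCm38.p6), were given for 7 of the 10 genes, namely Nfe2l2, Keap1, Nqo1, Gclm, Txnrd1, Srxn1 and Gpx2. Each of the 9 windows was searched on both strands for the core antioxidant response element, TGACNNNGC, where N is any base. The windows of 4 genes held a match, and those of Keap1, Nqo1 and Gpx2 held none. Over all RefSeq windows of this length, 12.4% held the motif (4071 of 32851), as did 14% of genes (3781 of 27025). The 4 stretches below are shown because they are the members' windows that hold it. For Nfe2l2, Gclm and the second of the windows of Txnrd1, the 250 bases before the start are given. The match of Srxn1 lies after the start, so only the site and its flanks are given. All are written 5′ to 3′ on the gene's strand, and the capitals mark the motif, which in Gclm, Txnrd1 and Srxn1 lies on the opposite strand and appears as its reverse complement.
Nfe2l2, chr2:75704664-75704913, minus strand: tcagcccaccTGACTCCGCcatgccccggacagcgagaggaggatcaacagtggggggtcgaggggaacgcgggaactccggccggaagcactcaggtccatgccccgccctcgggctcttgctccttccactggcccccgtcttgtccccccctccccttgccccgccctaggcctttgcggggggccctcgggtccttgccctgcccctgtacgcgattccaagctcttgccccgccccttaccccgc
Gclm, chr3:122245307-122245556, plus strand: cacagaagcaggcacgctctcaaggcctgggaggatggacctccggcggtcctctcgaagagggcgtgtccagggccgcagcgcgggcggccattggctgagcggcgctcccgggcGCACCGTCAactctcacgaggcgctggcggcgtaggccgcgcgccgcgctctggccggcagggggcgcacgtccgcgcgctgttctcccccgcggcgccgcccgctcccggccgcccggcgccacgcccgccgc
Txnrd1, chr10:82858956-82859205, plus strand: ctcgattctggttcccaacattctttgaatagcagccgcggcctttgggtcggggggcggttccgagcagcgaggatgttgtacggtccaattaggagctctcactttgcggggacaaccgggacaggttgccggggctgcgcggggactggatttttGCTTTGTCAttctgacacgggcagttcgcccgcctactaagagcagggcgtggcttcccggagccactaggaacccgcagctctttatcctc
Srxn1, chr2:152105543-152105569, plus strand: cagtgggcaGCTAGGTCAgagtgagac

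A match describes the letters of the window. It does not show that NRF2 binds there, and a window without one says only that these letters were not in it.

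At the high dose against control, 6 of the 10 genes passed edgeR's quasi-likelihood test with Benjamini-Hochberg adjustment over all genes, against 67.5% of all tested genes. Nfe2l2, Hmox1, Txnrd1 and Gpx2 rose, 4 of 10 against 34.4% of all genes. Nqo1 and Gclc fell, 2 of 10 against 33.1% of all genes. Keap1, Gclm, Srxn1 and Gsr did not pass. Under upper quartile scaling 5 of the 10 were lower, since Keap1, Gclm and Gsr then passed. The median log2 fold change was 0.0045 in the 10 genes and −0.0045 over all tested genes, with members on both sides of 0, from −0.78 for Nqo1 to 1.51 for Hmox1. These shares lie near those of all genes, and a high-dose response particular to the 10 genes cannot be read from them.

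Nfe2l2, Gclm, Hmox1, Txnrd1 and Srxn1 rose at the low dose against control and none of the 10 genes fell by the edgeR test. Their 5 calls stand against 34.6% of all tested genes, made up of 20.8% higher and 13.8% lower. The median log2 fold change was 0.14 in the 10 genes and 0.02 over all genes. The changes were small, the largest being 1.46-fold for Nfe2l2, and the calls for Gclm, Txnrd1 and Hmox1 were sensitive to the processing. Only 3 of the 10 were higher under upper quartile scaling, and 2 under limma on TPM or without control replicate 1. The 4 genes with a motif in their window were among the 5 that rose at this dose, and Hmox1 had no window, which is a description of 10 chosen genes and was not tested.

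Between the doses, 9 of the 10 genes differed by the edgeR test, against 58.9% of all tested genes. Hmox1, Txnrd1 and Gpx2 were higher at the high than at the low dose, 3 of 10 against 29.8%. Nfe2l2, Keap1, Nqo1, Gclc, Gclm and Srxn1 were lower, 6 of 10 against 29.1%, and Gsr did not pass. The median log2 fold change was −0.21 in the 10 genes and −0.02 over all genes. The highest group mean lay at the low dose for 6 of the 10 genes (Nfe2l2, Keap1, Nqo1, Gclm, Srxn1 and Gsr), a position held by 18.8% of all tested genes, although Keap1, Nqo1 and Gsr did not pass there against control. It lay at the high dose for Hmox1, Txnrd1 and Gpx2, as for 43.5% of all genes, and in control for Gclc, as for 37.8%. These comparisons share libraries, so the same deviation of a library enters more than 1 of them.

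**Figure D1:**
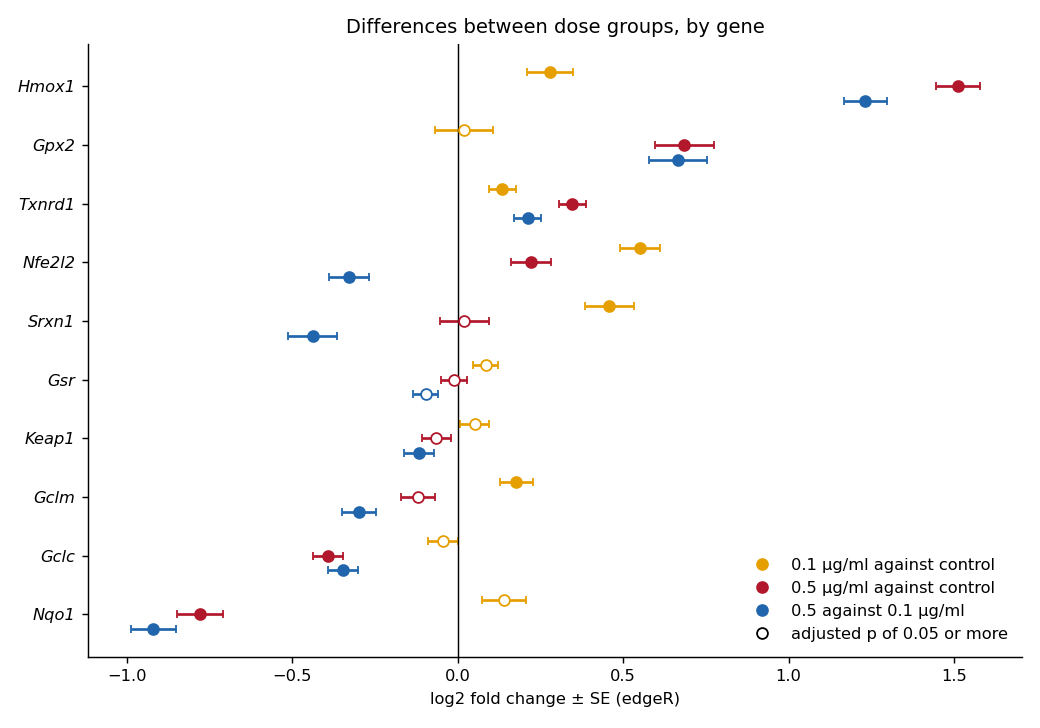
Differences between dose groups for the 10 genes, as edgeR log2 fold change ± standard error on the horizontal axis, for 0.1 µg/ml against control (orange), 0.5 µg/ml against control (red) and 0.5 against 0.1 µg/ml (blue). Filled points passed an adjusted p of 0.05 and open points did not. Hmox1 stands at the top with 1.51 at 0.5 µg/ml and Nqo1 at the bottom with −0.78.

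Nfe2l2 (ENSMUSG00000015839), the transcription factor itself, gave 191 and 207 CPM in the control libraries, 296 and 287 at the low dose and 245 and 219 at the high dose. Its mRNA was highest at the low dose, and the 3 groups did not overlap. With 2 libraries a group, lack of overlap was common among all tested genes. It held for 67.8% of them between the low dose and control, 84.1% between the high dose and control and 80.7% between the doses. Among the 10 genes it held for 8, 8 and 10 in the same order. The mean was 199 ± 11.7 CPM in control, 292 ± 5.80 CPM at the low dose and 232 ± 18.1 CPM at the high dose (SD, n = 2 each). It was 1.46-fold higher at the low dose than in control, a log2 fold change of 0.55 ± 0.060 (SE, edgeR adjusted p = 9.40e-05). This call held under all 13 alternatives tried. Its difference from control was 1.17-fold at the high dose (log2 0.22 ± 0.060, edgeR adjusted p = 0.00838). It did not pass under upper quartile scaling, under limma on TPM (with either pseudocount), or without control replicate 1 or replicate 1 at the high dose, where the log2 difference went down to 0.07 and the adjusted p up to 0.358. Between the doses Nfe2l2 fell by 0.33 ± 0.060 on the log2 scale from the low to the high dose (edgeR adjusted p = 0.00103).

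Keap1 (ENSMUSG00000003308), the adaptor that brings NRF2 to its ubiquitin ligase, gave 76.3 and 76.2 CPM in the control libraries, 80.3 and 77.7 at the low dose and 71.4 and 74.4 at the high dose. Its level was nearly flat. Neither dose passed against control, with log2 differences of 0.05 ± 0.044 (edgeR adjusted p = 0.402) at the low dose and −0.06 ± 0.044 (edgeR adjusted p = 0.22) at the high dose. The second of these passed under upper quartile scaling and under limma on TPM, where the log2 difference was −0.15 to −0.16. The step between the doses, −0.12 ± 0.044, passed by a narrow margin (edgeR adjusted p = 0.0447) and was lost under 8 of 13 alternatives, among them DESeq2 and leaving out any library other than control replicate 2. Of the 100-base words in Keap1 transcripts, 4.58% are shared with Gm16754, which overlaps it by 510 bases on the opposite strand, so some of its reads may have been assigned either way.

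Nqo1 (ENSMUSG00000003849), the quinone reductase often used as a readout of NRF2, was at 34.2 and 32.5 CPM in control and at 38.4 and 35.0 CPM at the low dose. Its level at the high dose was 20.5 and 18.5 CPM, below every other library. It fell by 0.78 ± 0.070 on the log2 scale at the high dose against control, 1.72-fold lower (edgeR adjusted p = 5.72e-06). Against the low dose it was 1.89-fold lower (log2 −0.92 ± 0.069, edgeR adjusted p = 2.75e-06). Both calls held under all 13 alternatives. The difference of the low dose from control was 0.14 ± 0.066 on the log2 scale and did not pass (edgeR adjusted p = 0.134).

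Glutathione is built in a rate-limiting step by glutamate-cysteine ligase, whose catalytic subunit is Gclc and whose modifier subunit, which makes the enzyme more efficient, is Gclm. Gclc (ENSMUSG00000032350) gave 64.3 and 62.7 CPM in the control libraries, 62.9 and 60.1 at the low dose and 49.1 and 47.7 at the high dose. Control and the low dose overlapped, and the high dose lay below both. Gclc fell by 0.39 ± 0.046 on the log2 scale at the high dose against control, 1.31-fold lower (edgeR adjusted p = 4.00e-05), under all 13 alternatives. The low dose differed from control by −0.05 ± 0.045 (edgeR adjusted p = 0.481).

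Gclm (ENSMUSG00000028124) gave 58.7 and 61.9 CPM in the control libraries, 70.5 and 65.7 at the low dose and 55.2 and 55.7 at the high dose. The groups did not overlap, with the low dose highest and the high dose lowest. Gclm was 1.13-fold higher at the low dose than in control (log2 0.18 ± 0.050, edgeR adjusted p = 0.0225). That call was lost under 8 of 13 alternatives, including DESeq2 (adjusted p = 0.0501) and leaving out control replicate 1, replicate 1 at the low dose, or either library at the high dose. The high dose differed from control by −0.12 ± 0.051 and did not pass (edgeR adjusted p = 0.0599), although it passed under 4 alternatives, among them leaving out control replicate 1 or replicate 2 at the low dose. The fall from the low to the high dose, 1.23-fold, passed (log2 −0.30 ± 0.051, edgeR adjusted p = 6.66e-04) and held throughout. Of its 100-base words 3.09% are shared with other genes, among them Ppia, its copies and the overlapping Gm17494 and Gm6061. Ppia had 80187 to 134444 counts in a library and Gclm 2408 to 5112, so some reads of Gclm may have been assigned either way.

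The subunits can be compared by TPM, which is scaled by transcript length. The ratio of Gclm to Gclc was 2.69 and 3.17 in control, 3.50 and 3.35 at the low dose, and 3.64 and 3.74 at the high dose. The libraries of each dose lay above the controls and the doses did not overlap. Gsr (ENSMUSG00000031584), which reduces oxidised glutathione with NADPH, had the closest replicates of the 10 genes. It was at 189 and 187 CPM in control, 199 CPM in both libraries at the low dose, and 187 and 185 CPM at the high dose. Its log2 differences were 0.09 ± 0.038 at the low dose (edgeR adjusted p = 0.115) and −0.01 ± 0.038 at the high dose (edgeR adjusted p = 0.805) against control. The step between the doses, −0.10 ± 0.038, did not pass (edgeR adjusted p = 0.0516) but did under 5 of 13 alternatives, among them leaving out control replicate 2.

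In the thioredoxin arm, Txnrd1 encodes the cytosolic enzyme that reduces thioredoxin, and Srxn1 encodes sulfiredoxin, which repairs over-oxidised peroxiredoxins. Txnrd1 (ENSMUSG00000020250) gave 245 and 248 CPM in the control libraries, 271 and 270.2 at the low dose and 306 and 321 at the high dose. It was the only member besides Hmox1 whose 3 groups stood apart in the order of dose from low to high. The share of all tested genes with this order was not counted. The high dose was 1.27-fold above control (log2 0.35 ± 0.041, edgeR adjusted p = 3.84e-05), under all 13 alternatives. The low dose was 1.10-fold above control (log2 0.13 ± 0.040, edgeR adjusted p = 0.0288). That smaller call was lost under 10 of 13 alternatives, including the removal of any of the 6 libraries. From the low to the high dose it was 1.16-fold higher (log2 0.21 ± 0.040, edgeR adjusted p = 0.00141).

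Srxn1 (ENSMUSG00000032802) gave 45.0 and 48.5 CPM in the control libraries, 68.1 and 60.2 at the low dose and 44.7 and 49.99 at the high dose. Both low-dose libraries lay above the other 4, and control and the high dose overlapped. It was 1.37-fold higher at the low dose than in control (log2 0.46 ± 0.074, edgeR adjusted p = 0.00108), and at the high dose it was 1.35-fold lower than at the low dose (log2 −0.44 ± 0.074, edgeR adjusted p = 6.23e-04). Both calls held under all 13 alternatives. Between the high dose and control the log2 difference was 0.02 ± 0.075 (edgeR adjusted p = 0.823), and its sign changed under upper quartile scaling, in limma on TPM, and without control replicate 1, replicate 2 at the low dose or replicate 2 at the high dose.

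Gpx2 (ENSMUSG00000042808), the glutathione peroxidase of the gastrointestinal epithelium, was at 336 and 278 CPM in control and at 289.8 and 332 CPM at the low dose. These ranges overlapped. The high dose gave 509 and 477 CPM, above every other library. It was 1.61-fold higher at the high dose than in control (log2 0.68 ± 0.089, edgeR adjusted p = 7.85e-05) and 1.59-fold higher than at the low dose (log2 0.67 ± 0.089, edgeR adjusted p = 1.35e-04), and both calls held under all 13 alternatives. For the low dose the difference from control was 0.02 ± 0.088 (edgeR adjusted p = 0.896), with a sign that depended on the processing. The control libraries differed from each other 1.21-fold in Gpx2, the widest replicate gap among the 10 genes.

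Hmox1 (ENSMUSG00000005413), heme oxygenase, which degrades heme to biliverdin, iron and carbon monoxide, changed the most at the high dose. It gave 10.6 and 11.5 CPM in the control libraries, 13.1 and 13.7 at the low dose and 31.1 and 31.9 at the high dose. The groups did not overlap. It was 2.85-fold higher at the high dose than in control (log2 1.51 ± 0.067, edgeR adjusted p = 3.22e-08) and 2.35-fold higher than at the low dose (log2 1.23 ± 0.064, edgeR adjusted p = 2.41e-07). The low dose was 1.21-fold above control (log2 0.28 ± 0.069, edgeR adjusted p = 0.0116). That smaller call was lost in limma on TPM, without control replicate 1, and without replicate 2 at the low dose.

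**Figure D2:**
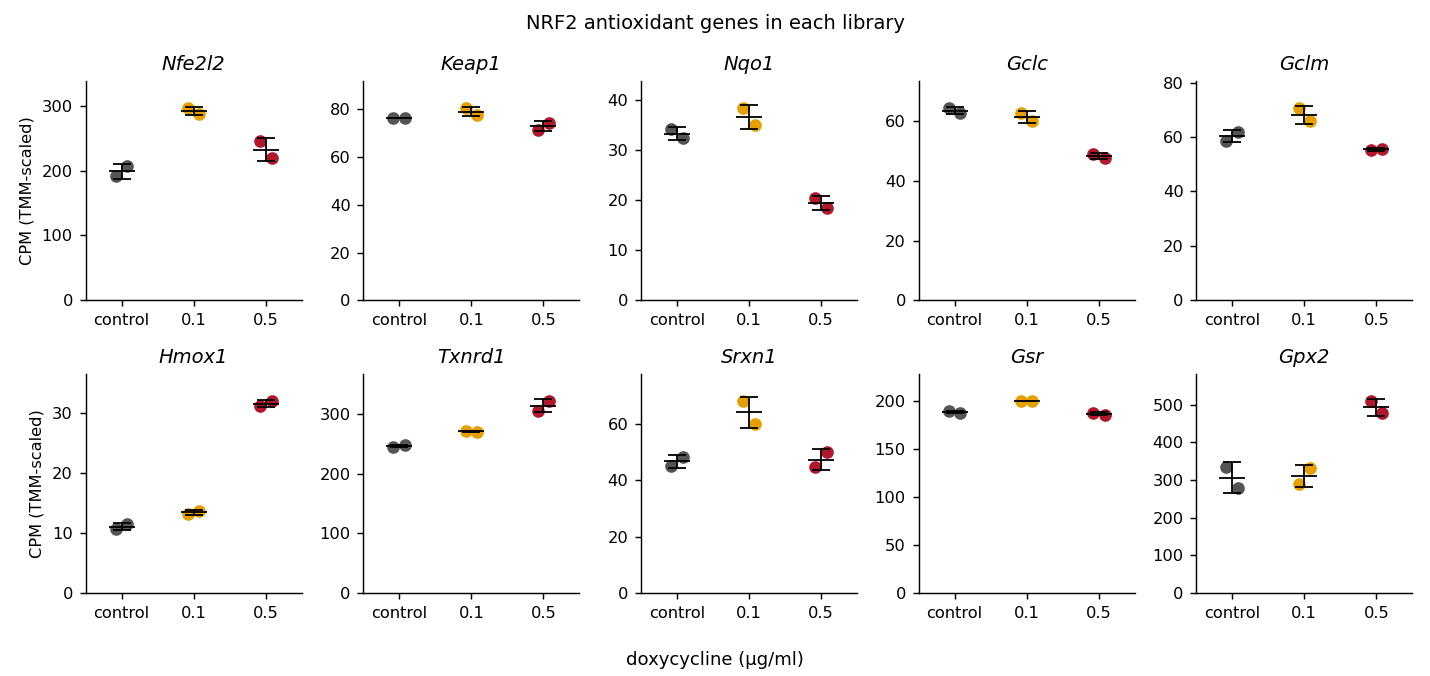
CPM scaled by TMM (vertical axis, from 0) of each of the 10 genes against doxycycline in µg/ml, with a point for each library and the mean ± SD of the 2 libraries of a group as bars. Nfe2l2 and Srxn1 peak at 0.1 µg/ml, Hmox1 and Gpx2 stand apart at 0.5 µg/ml with 31.1 and 31.9 and with 509 and 477 CPM, and Nqo1 drops there to 20.5 and 18.5 CPM.

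The 10 genes differed widely in level. By TPM, which allows genes to be compared, Gpx2 was highest in every group, at 470.37 and 396.03 TPM in control. It was followed in control by Nfe2l2 at a mean of 111 TPM, Txnrd1 at 103 TPM, Gsr at 93.4 TPM and Gclm at 68.5 TPM. Keap1, Nqo1, Gclc and Srxn1 formed a lower tier between 22.9 and 29.9 TPM, and Hmox1 was lowest at 9.44 TPM. In control the ranges of Nfe2l2 and Txnrd1 overlapped, as did those of Gclc and Srxn1.

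At the low dose the order was nearly kept, with Nfe2l2 at 155 TPM clear of Txnrd1 at 109 TPM and with Keap1 overlapping both Nqo1 and Srxn1. At the high dose the low end changed. Hmox1 moved up to rank 7 of 10 at 25.2 TPM, and Nqo1 became the lowest of the 10 at 15.6 TPM. Txnrd1 and Nfe2l2 overlapped at this dose. The ratio of Hmox1 to Nqo1 in TPM was 0.310 and 0.351 in control, 0.343 and 0.396 at the low dose, and 1.52 and 1.72 at the high dose. The ratio of Nfe2l2 to Keap1 was 3.61 and 3.77 in control, 5.22 and 5.12 at the low dose, and 4.67 and 4.05 at the high dose, so both doses lay above control and the lower dose was higher. Summed over the 10 genes, TPM was 943 and 903 in control and 961 and 1017 at the low dose. At the high dose the sum was 1150 and 1136. Gpx2 made up the largest share of each sum. It was at 470 and 396 TPM in control, 395 and 460 at the low dose, and 664 and 639 at the high dose. The higher sum at the high dose is therefore not a rise of all 10 genes, and Nqo1 and Gclc fell there.

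**Figure D3:**
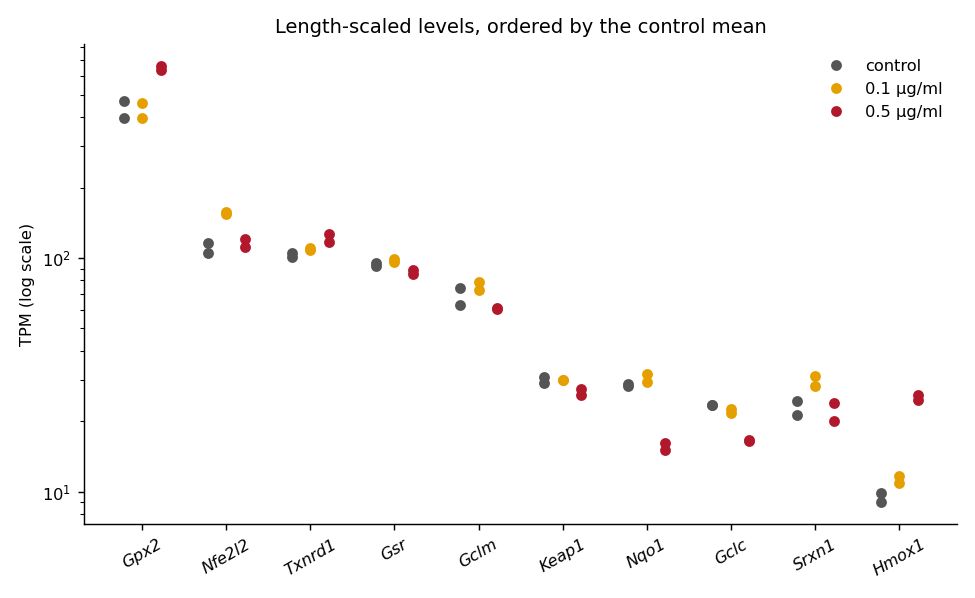
TPM of each of the 10 genes on a log scale, with a point for each library in control (grey), 0.1 µg/ml (orange) and 0.5 µg/ml (red), ordered by the control mean. Gpx2 is highest in all groups, and Hmox1, lowest in control at 9.44 TPM, lies above Nqo1 at 0.5 µg/ml.

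The wider pathway was described from 8 lists of genes around the 10, giving for each the calls by the edgeR test and, as examples, the most changed genes at the high dose. No list was tested as a set. Counts in a list are to be read beside the shares of all tested genes, which were 34.4% higher and 33.1% lower at the high dose against control, 20.8% higher and 13.8% lower at the low dose against control, and 29.8% higher and 29.1% lower from the low to the high dose. Of 20 regulators and partners of NRF2, 9 rose, 6 fell and 5 did not pass at the high dose against control, beside 34.4% and 33.1% of all tested genes, with a median log2 fold change of 0.10. Nfe2l3, a relative of Nfe2l2 in the same family of transcription factors, gave 0.608 and 0.399 CPM in the control libraries, 2.35 and 2.83 at the low dose and 26.1 and 28.0 at the high dose. It rose at each dose, with a log2 fold change of 5.74 ± 0.16 at the high dose (edgeR adjusted p = 1.43e-09). Maff, a small MAF partner, was 2.13-fold higher (log2 1.09 ± 0.082, edgeR adjusted p = 1.45e-06). On the lower side, Dcaf11, a substrate receptor of CUL4 ubiquitin ligases, was 1.65-fold lower (log2 −0.73 ± 0.044, edgeR adjusted p = 3.33e-07), and Btrc, which directs NRF2 to degradation independently of KEAP1, was 1.49-fold lower (log2 −0.58 ± 0.12, edgeR adjusted p = 0.00158). Of these 20 genes 15 did not pass at the low dose. Mafk, Nfe2l3 and Dpp3 rose, and Bach1 and Dcaf11 fell. Bach1, the repressor that competes with NRF2 for its elements, gave 120.2 and 120.3 CPM in the control libraries, 107 and 108 at the low dose and 86.3 and 86.2 at the high dose, a fall of 1.39-fold at the high dose (log2 −0.48 ± 0.040, edgeR adjusted p = 3.17e-06).

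Of 33 genes of glutathione supply, conjugation and export, 14 rose, 11 fell and 8 did not pass at the high dose, beside 34.4% higher and 33.1% lower of all tested genes, with a median of 0.07. Abcc1, an exporter of glutathione conjugates, gave 51.0 and 52.6 CPM in the control libraries, 82.8 and 80.9 at the low dose and 178 and 179 at the high dose, 3.44-fold above control at the high dose (edgeR adjusted p = 5.61e-10). Chac1, which cleaves glutathione, was 2.26-fold higher (edgeR adjusted p = 3.96e-07). The glutathione transferases Gstt1 and Mgst1 were 3.39-fold and 3.27-fold lower (edgeR adjusted p = 1.47e-07 and 2.06e-08). Of the 33 genes 15 rose and Gstt1 and Gstt2 fell at the low dose (20.8% and 13.8% of all tested genes), with a median of 0.25. From the low to the high dose 18 fell and 9 rose (29.1% and 29.8% of all tested genes), with a median of −0.32. Slc7a11, the cystine carrier that feeds glutathione synthesis and a well-known NRF2 target, gave 42.2 and 46.4 CPM in the control libraries, 42.8 and 41.9 at the low dose and 46.4 and 48.9 at the high dose and did not pass against control at either dose (edgeR adjusted p = 0.409 and 0.129). It was 1.13-fold higher at the high than at the low dose (edgeR adjusted p = 0.0261).

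Of 24 tested genes (of 26 listed) that remove peroxide and superoxide or serve thioredoxin, 5 rose, 10 fell and 9 did not pass at the high dose, beside 34.4% higher and 33.1% lower of all tested genes, with a median of −0.12. Those that rose were Gpx7, Prdx2, Prdx3, Txnrd3 and Sod1. Txnrd3, a thioredoxin and glutathione reductase related to Txnrd1, was at 14.2 and 13.8 CPM in control and at 37.4 and 42.8 CPM at the high dose, 2.86-fold higher (edgeR adjusted p = 6.40e-08), and the superoxide dismutase Sod1 was 1.5-fold higher (edgeR adjusted p = 1.88e-06). Txnip, an inhibitor of thioredoxin, gave 976 and 814 CPM in the control libraries, 567 and 621 at the low dose and 299.6 and 254 at the high dose, 3.23-fold lower at the high dose (edgeR adjusted p = 1.97e-07). The sestrin Sesn1 was 2.10-fold lower (edgeR adjusted p = 1.58e-07). The low dose had 6 of the 24 higher and 6 lower, beside 20.8% and 13.8% of all tested genes.

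Of 10 genes of NADPH supply, G6pdx, Pgd and Me1 rose at the high dose, Pgls, Tkt, Idh1 and Nnt fell, and 3 did not pass. Over all tested genes 34.4% were higher and 33.1% lower at that dose. Me1, cytosolic malic enzyme, gave 58.8 and 64.6 CPM in the control libraries, 176 and 172 at the low dose and 412 and 364 at the high dose. It was 6.28-fold above control at the high dose (edgeR adjusted p = 9.04e-10) and 2.82-fold at the low dose (edgeR adjusted p = 2.03e-07). G6pdx, which opens the pentose phosphate pathway, was 1.68-fold higher (edgeR adjusted p = 1.21e-06), while Tkt, of its non-oxidative branch, was 1.34-fold lower (edgeR adjusted p = 4.38e-06). The low dose had G6pdx, Pgd, Me1 and Idh1 higher, and none of the 10 fell by the edgeR test (20.8% and 13.8% of all tested genes).

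Of 22 genes that reduce or oxidise quinones, aldehydes and ketones, to which Nqo1 is related by function, 6 rose, 14 fell and 2 (Aldh7a1 and Blvra) did not pass at the high dose, with a median of −0.43. Nqo1 itself is not in this list, and its fall stands beside these 14 and beside 33.1% of all tested genes. Akr1c19 gave 93.4 and 97.9 CPM in the control libraries, 81.3 and 68.2 at the low dose and 20.6 and 19.2 at the high dose, 4.82-fold lower (edgeR adjusted p = 8.97e-09), and Akr1b8 was 2.53-fold lower (edgeR adjusted p = 7.77e-06). The aldehyde dehydrogenase Aldh3a1 went the other way. It gave 0.0203 and 0.0399 CPM in the control libraries, 21.9 and 21.5 at the low dose and 154 and 168 at the high dose. It had 3 counts in the control libraries together, and its ratio to control was 722 (exact 95% interval 247 to 3503) at the low dose and 5368 (1836 to 26030) at the high dose, which covers counting error only. Aldh1a1, a retinal dehydrogenase, was 3.23-fold higher (edgeR adjusted p = 4.68e-06). Of the 22 genes 10 rose at the low dose and Akr1c19 and Akr7a5 fell (20.8% and 13.8% of all tested genes), with a median of 0.18. From the low to the high dose 14 fell and Akr1b3, Akr1b10, Aldh3a1 and Aldh7a1 rose (29.1% and 29.8% of all tested genes), with a median of −0.54.

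Around heme and iron, where Hmox1 acts, 9 of 10 listed genes were tested. Ftl1, Slc40a1, Alas1 and Pir rose at the high dose, Hmox2, Fth1 and Slc48a1 fell, and Fech and Tfrc did not pass. Pir, an iron-binding nuclear protein, gave 7.68 and 9.14 CPM in the control libraries, 15.7 and 15.4 at the low dose and 26.9 and 28.6 at the high dose, 3.30-fold higher (edgeR adjusted p = 7.96e-08). Alas1, which controls heme synthesis, was 1.34-fold higher (edgeR adjusted p = 1.03e-04). The heme transporter Slc48a1 was 2.06-fold lower (edgeR adjusted p = 4.72e-07). The heavy chain of ferritin, Fth1, gave 1043 and 1067 CPM in the control libraries, 1205 and 1072 at the low dose and 635 and 585 at the high dose, 1.73-fold lower (edgeR adjusted p = 1.58e-06).

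Among subunits of the superoxide- and peroxide-producing oxidases, 8 of 14 were tested, and the rest were too low. At the high dose 3 of them rose, Cyba and Duox1 included, Nox1 and Noxo1 fell, and Noxa1, Duox2 and Duoxa2 did not pass. These calls stand beside 34.4% higher and 33.1% lower of all tested genes, and the median log2 fold change was −0.49. Cyba, which anchors the oxidase in the membrane, gave 9.97 and 9.24 CPM in the control libraries, 17.5 and 18.7 at the low dose and 33.8 and 36.5 at the high dose, 3.66-fold higher (edgeR adjusted p = 1.21e-08), and Noxo1, an organiser of NOX1, was 1.60-fold lower (edgeR adjusted p = 3.46e-04).

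Txnrd1 and Gpx2 are selenoproteins, so 13 genes of selenoprotein synthesis and further selenoproteins were also read. Secisbp2, Selenos and Selenok rose at the high dose, 6 fell and 4 did not pass, with a median of 0.01. These calls stand beside 34.4% higher and 33.1% lower of all tested genes. Selenow gave 111 and 97.8 CPM in the control libraries, 70.6 and 76.7 at the low dose and 48.0 and 49.8 at the high dose, 2.13-fold lower (edgeR adjusted p = 3.70e-07). Selenop, a secreted selenium carrier, was at 303 and 307 CPM in control, rose to 400.5 and 369 CPM at the low dose, and was at 169 and 165 CPM at the high dose, 1.82-fold below control (edgeR adjusted p = 1.51e-07). Selenos and Selenok, both of the endoplasmic reticulum, were 1.12-fold and 1.11-fold higher (edgeR adjusted p = 0.00742 and 0.0121). The call for Selenos was lost under 6 of 13 alternatives, among them without control replicate 1 or either library at the high dose, and that for Selenok under 3, among them without control replicate 2 or replicate 2 at the high dose.

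**Figure D4:**
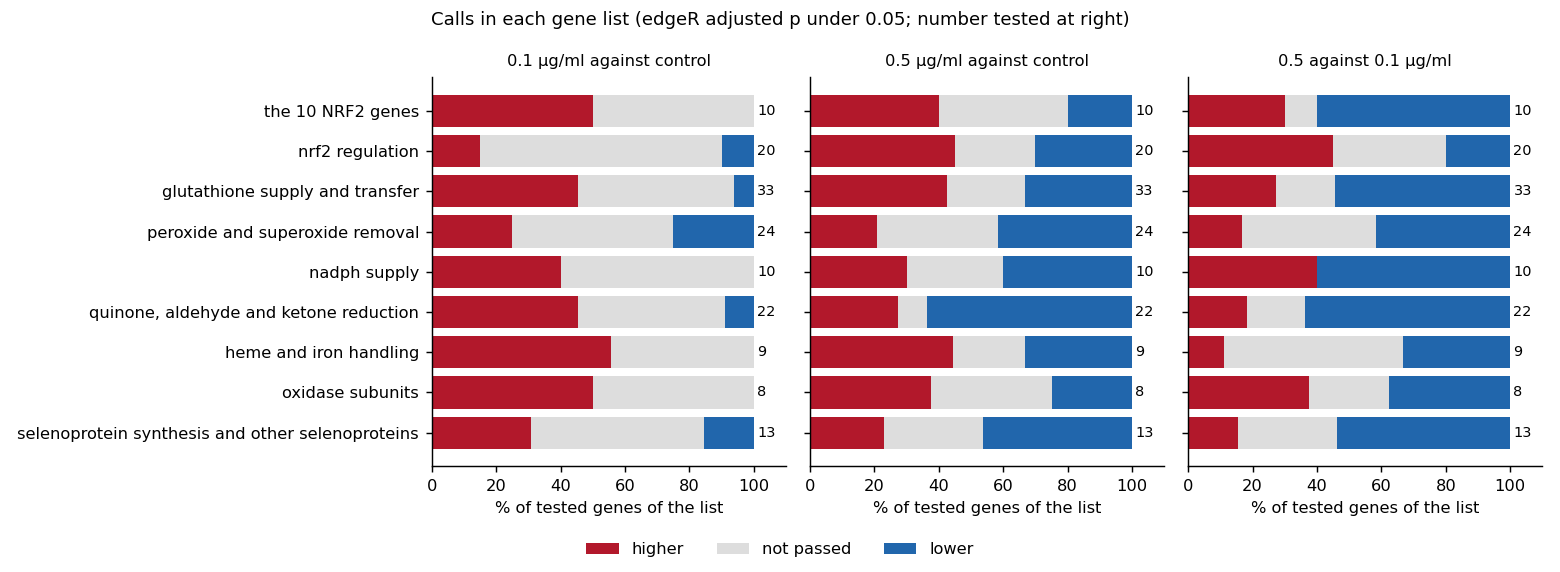
Share of the tested genes of each list (horizontal axis, percent; number tested at the right of each bar) that were called higher (red), lower (blue) or did not pass (grey) by edgeR, in the 3 comparisons. The quinone, aldehyde and ketone list has 14 of 22 genes lower at 0.5 µg/ml and 10 of 22 higher at 0.1 µg/ml against control. Over all tested genes these shares were 33.1% and 20.8%.

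Markers of the epithelial cell types moved with dose beside these results. Their calls are to be read beside the shares of all tested genes against control. These were 34.4% higher and 33.1% lower at the high dose, and 20.8% higher and 13.8% lower at the low dose. The summed CPM of 10 absorptive enterocyte markers was 1861 and 2254 in control, 3603 and 2723 at the low dose, and 1323 and 1349 at the high dose, highest at the dose at which 6 of the 10 NRF2 genes had their highest mean. Of these markers 6 rose and 1 fell at the low dose, and 7 fell and 3 did not pass at the high dose by the edgeR test. Crypt base stem cell markers summed to 1537 and 1231 CPM in control, 509 and 689 at the low dose and 306 and 287 at the high dose, where 7 of 8 fell. Paneth cell markers summed to 1350.0 and 1195 CPM, 369 and 491, and 153 and 144 in the same order, and 7 of 8 tested fell at the high dose. Goblet cell markers summed to 3204 and 3491 CPM, 2417 and 2754, and 775 and 772, with 7 of 9 lower at the high dose. Enteroendocrine markers summed to 317 and 400.4 CPM, 113 and 127, and 27.8 and 31.3, with all 9 lower at the high dose. Tuft cell markers (8 genes, 5 tested) went up from 6.54 and 8.76 CPM to 151 and 152 and to 414 and 422 CPM, with 3 called higher and 1 lower at the high dose. The epithelial markers (9 genes) summed to 4991 to 5120 CPM in control and 7865 to 7973 CPM at the high dose, where 6 rose and Epcam, Krt18 and Cldn7 fell. Summed markers of cells outside the epithelium were low beside those of epithelium, but they rose and were highest at the high dose. Fibroblast markers (9 genes, Col1a1 among them) went from 1.499 and 1.755 CPM in control to 6.25 and 7.08 CPM at the high dose. Immune cell markers (9 genes, 2 at 0 in every library) went from 4.82 and 4.61 to 15.2 and 14.7 CPM. Endothelial markers (7 genes, 2 at 0 in every library) went from 0.790 and 1.02 to 12.4 and 12.6 CPM. Each of these lists had 3 genes tested. By the edgeR test Col1a1, Dcn, Ptprc, Cd68, Tek, Vwf and Eng were higher at the high dose, and Pdgfrb and Itgam were lower. The source of these rises was not tested. The part of these markers in the values of the NRF2 genes was not tested. In bulk RNA, fewer cells of a type and less RNA per cell cannot be told apart.

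**Figure D5:**
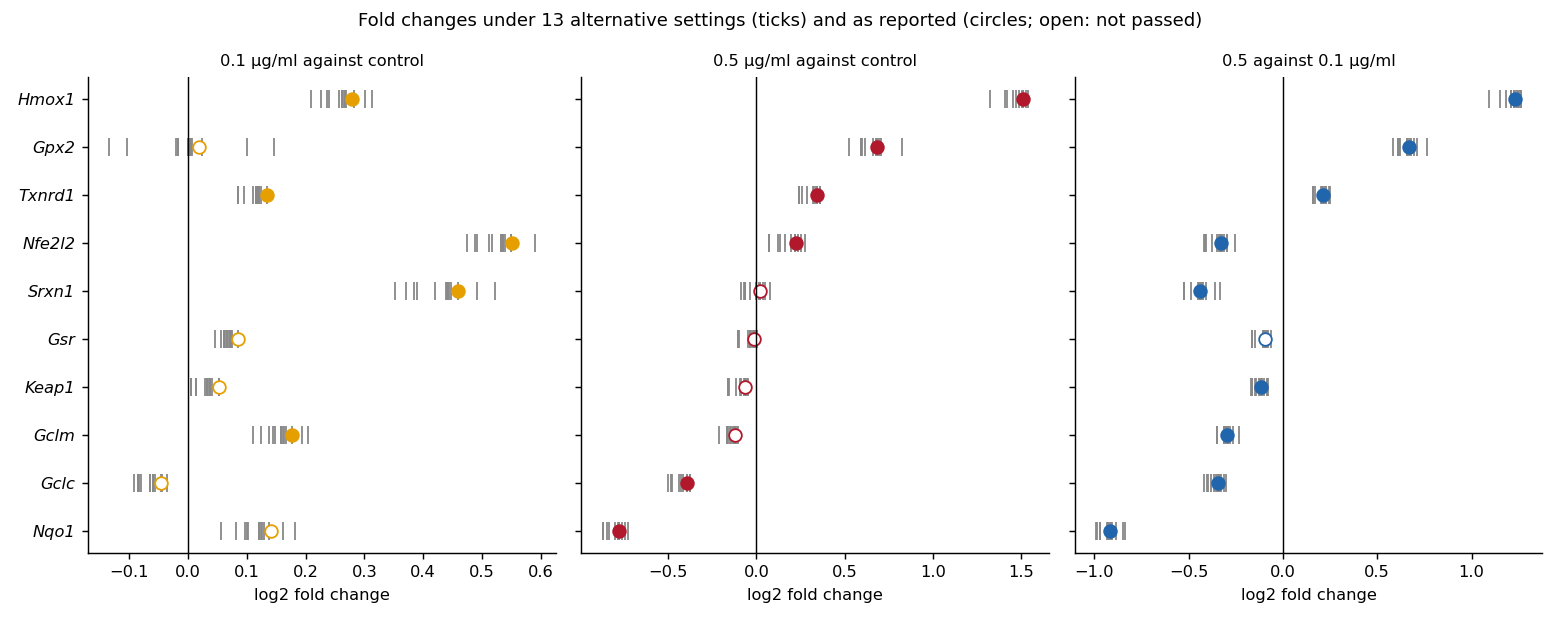
Log2 fold changes of the 10 genes as reported (circles, filled where the adjusted p was under 0.05) and under 13 alternative settings (grey ticks), for each of the 3 comparisons. At 0.5 µg/ml against control Hmox1, Gpx2, Txnrd1, Gclc and Nqo1 stay on their side of 0 in every setting, while Srxn1, with 0.02, has ticks on both sides.

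The alternatives changed the scaling, the tool, the filter, the unit, the libraries in the fit or the replicate term. Over the 30 differences of the 10 genes, 19 kept both their direction and their side of the threshold under all 13. These 19 include Nqo1, Gclc, Hmox1, Txnrd1 and Gpx2 at the high dose against control and Nfe2l2 and Srxn1 at the low dose against control. The 10 genes were well covered, with the lowest count in any library 525 for Hmox1, and the ratio between replicates was at most 1.21.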

How the data were processed

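Poly-A RNA from 6 organoid libraries was read as 100 bp pairs from strand-specific libraries, per the labels' protocols. Per the submitters' processing notes the tools were RSEM 1.3.3, STAR 2.7.3a, Trim Galore and FastQC. Those notes list mm10 and GRCm39 but not which of them made the tables, so no coordinates were tied to the counts. The authors deposited expected counts per gene, which are estimated by RSEM and need not be whole. The authors also deposited TPM for the same genes and libraries, which carry no depth. RSEM divides reads shared between genes, so copies and overlapping genes are uncertain, and whether the counting used strand is not stated.

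Expected counts were rounded. Of 55416 identifiers 52083 (94.0%) have a symbol in GENCODE M21. edgeR's filterByExpr by group kept 16975 genes, which hold 99.96% of the counts, and TMM gave scaling factors of 0.964 to 1.04. All 6 libraries entered 1 edgeR 4.0.16 quasi-likelihood fit (R 4.3.3) of group means without covariates, with 3 residual degrees of freedom, two-sided tests and a threshold of 0.05 after Benjamini-Hochberg adjustment over all genes. Standard errors come from the F statistic. With 2 against 2 libraries the smallest p of an exact test of 1 gene is 0.333, and significance therefore depends on pooling the spread over genes. Alternatives were upper quartile scaling, DESeq2 1.42.0, every gene with at least 1 count, limma 3.58.1 on log2(TPM + 1) and log2(TPM + 0.1) for genes with at least 1 TPM in 2 libraries, only the groups compared, a replicate term, and leaving out each library. Where this leaves 1 library in a group, that library is assumed to vary like the others.

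The 10 genes, the lists and the markers were chosen with earlier results of these data known. The pathway genes described with values are, for each list, the 2 highest and 2 lowest log2 fold changes called at 0.5 µg/ml with at least 5 CPM in a group. Nnt met that rule but shares its symbol with another row, so it has no value here, and the oxidase list held only 1 such gene that fell. A gene that met the rule is not reported here. Bach1, Slc7a11 and genes listed where a count came to 5 or fewer were named after their values were seen. Shared sequence was counted over 100-base words of GENCODE M21 transcripts. The fit was tested on simulated data with 50 genes changed at each of several sizes. It recovered 32% of those with a true log2 change of 0.25, 68% at 0.5, 92% at 1 and 100% at 2. Of its 151 calls 3.31% were false. Small differences were therefore often missed in the simulation. Far fewer genes changed there than in the data, and all genes were given the same dispersion. These shares thus do not give the recovery in the data. Replicates differed by more than sampling noise (chi-square per degree of freedom 7.95 to 8.84), and none was a duplicate.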

Additional observations from a re-analysis of the deposited data

How the results depend on the processing

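Of 390 values of the 10 genes under the alternatives, 329 kept their direction and their side of the threshold, 35 fell short of it, 13 newly passed it and 13 changed sign. Upper quartile scaling gave 5 of the 10 genes lower at 0.5 µg/ml against control in place of 2, and 3 higher at 0.1 µg/ml in place of 5. limma on TPM gave 2 higher at 0.1 µg/ml with either pseudocount, and 3505 (pseudocount 1) or 3508 (pseudocount 0.1) genes changed at 0.1 µg/ml against control in place of 5881. Leaving out each library gave 3800 to 5248 such genes, the lowest without replicate 1 at 0.1 µg/ml, and 2 to 4 of the 10 higher, the 2 being without control replicate 1. Signs changed for differences that had not passed the test. Srxn1 at 0.5 µg/ml against control was −0.0683 under upper quartile scaling, −0.0635 and −0.0662 in limma on TPM with pseudocounts 1 and 0.1, and −0.0851 to 0.0785 without each library. Gpx2 at 0.1 µg/ml against control was −0.0198 under upper quartile scaling, −0.0173 in limma on TPM with either pseudocount, and −0.134 to 0.145 without each library. Gsr at 0.5 µg/ml against control was 0.0043 in DESeq2. The causes of these shifts were not tested. Same-numbered libraries did not deviate together (correlations −0.039, 0.077 and 0.010). These values, from 2 libraries a group, cannot show whether the numbers pair the samples. With a replicate block 11162, 5265 and 9607 genes changed at 0.5 µg/ml against control, 0.1 µg/ml against control and 0.5 against 0.1 µg/ml, against 11465, 5881 and 10002 without it. Among the 10 genes the block ended only the call of Keap1 between the doses (log2 −0.12, edgeR adjusted p = 0.0691). Of the 390 values of the pathway genes 381 were kept and 9 fell short. With 2 libraries a group, a difference that did not pass is not shown to be absent.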
